A study of Drosophila melanogaster with 6 samples.

Results

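Mitochondrial ribosomal protein genes were examined in sorted intestinal stem cells (ISCs) of the Drosophila melanogaster midgut with and without RNA interference (RNAi) against NF-YA, a subunit of the transcription factor Nuclear Factor Y. The members are all genes of the deposited gene table whose symbol starts with mRpL (large subunit) or mRpS (small subunit). This gave 73 of the 8470 genes of that table, 47 of the large and 26 of the small subunit. No annotated gene with either prefix was missing from the table. The rule used symbols and no measured value.

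The mitochondrial ribosome (mitoribosome) translates the few proteins that the mitochondrial genome encodes, which are core subunits of the respiratory chain and of ATP synthase. Its ribosomal RNAs come from the mitochondrial genome, whereas its proteins are encoded in the nucleus, made in the cytoplasm and imported. Many of these proteins are counterparts of bacterial ribosomal proteins, and others are found in mitochondria only. The small subunit decodes the mRNA, and the large subunit joins the amino acids and holds the exit tunnel of the growing chain.

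The study compared 3 control samples with 3 NF-YA RNAi samples, which its methods call independent. Flies of both groups were adult females that carried the driver Esg-Gal4-ts with UAS-2x YFP and Su(H)-GBE-Gal80, which keeps Gal4 off in enteroblasts. They were crossed to Oregon R in the control and to the RNAi line VDRC 106132 in the other group, so the groups also differ in the strain crossed in. According to the labels, flies spent 3 days at 18 °C, then 3 days at 29 °C and 3 more days on holidic (chemically defined) food, whereas the methods give 3 days of holidic food at 29 °C. Both groups express the same Gal4 and YFP, and midguts were dissociated and sorted for YFP. The libraries are named control 1, 2 and 3 and NF-YA RNAi 2, 4 and 5, as in the labels.

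Libraries held between 77092609 and 122269943 estimated counts, in which 17609 genes had estimates and 9080, including all 73 members, passed the filter on low counts. Values are given as CPM, that is TMM-normalized counts on a per-library scale, and changes are log2 fold changes of NF-YA RNAi over control with their standard error (SE). A gene is called when its adjusted p (edgeR quasi-likelihood test, Benjamini-Hochberg over all genes tested) is under 0.05. The targeted gene Nf-YA was at 16.01, 19.7 and 23.6 CPM in the control and at 3.58, 4.92 and 4.30 CPM in the RNAi libraries, and fell by 2.21 on the log2 scale (SE 0.20, adjusted p = 0.000203). In a principal component analysis of log2 CPM, control libraries lay from -62.5 to -32.7 and RNAi libraries from 11.7 to 92.8 on the first component (46.4% of the variance). Of 7 progenitor markers that matched, all were detected in every library. Their summed level lay between 2700 and 3255 CPM in the control and between 2408 and 2528 CPM in the RNAi group, and esg and mira fell. Digestive and other enterocyte markers summed to 5651, 2284 and 2033 CPM in control libraries 1, 2 and 3 and to 1517, 568 and 347 CPM in RNAi libraries 2, 4 and 5. Of these 15 markers 7 fell, and the 2 with a positive log2 fold change, nub (0.54) and mex1 (0.46), were not called. Over all genes tested 8.02% fell and 6.19% rose, which is the base for each marker count here. Enteroendocrine markers summed to between 1856 and 2379 CPM and to between 526 and 1219 CPM, and 6 of 12 fell. Visceral muscle markers summed to between 11.1 and 48.2 CPM in the control and to between 7.57 and 13.1 CPM in the RNAi group. Of 6 hemocyte markers He was at 0 in all libraries, and 4 were tested, of which 2 fell and 1 rose. The part of these markers in the results below was not tested, and in bulk samples fewer cells of a type and less RNA per cell cannot be told apart.

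Per transcript length, the members spanned a wide range of levels. The median member was at 29.2 TPM (a level scaled by transcript length and library size) in the control, against 6.01 TPM over all genes tested. The highest mean control levels were those of mRpL12 at 190.5 TPM ± 34.9, mRpL27 at 182 TPM ± 18.0 and mRpL49 at 124 TPM ± 3.74 (SD, n = 3). The first is the stalk protein that recruits translation factors, mRpL27 belongs to a bacterial family that reaches to the peptidyl transferase centre, and mRpL49 is a protein of the mitochondrial large subunit. The lowest were mRpS21 at 0.97 TPM ± 0.40, mRpL33 at 1.498 TPM ± 0.49 and mRpL32 at 1.51 TPM ± 0.53, all 3 of bacterial families. mRpL12 and mRpL27 differed by less than their SD, as did mRpL33 and mRpL32. The rank of mRpL49 was not resolved either, since mRpS26 (123 TPM ± 11.9) and mRpL42 (121 TPM ± 23.0), named after their values were seen, were within their SD of it. In the RNAi group mRpL12 and mRpL27 were again the highest, at 302 TPM ± 27.3 and 268 TPM ± 30.6, and mRpS21 was again the lowest, at 2.15 TPM ± 0.50.

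**Figure D1:**
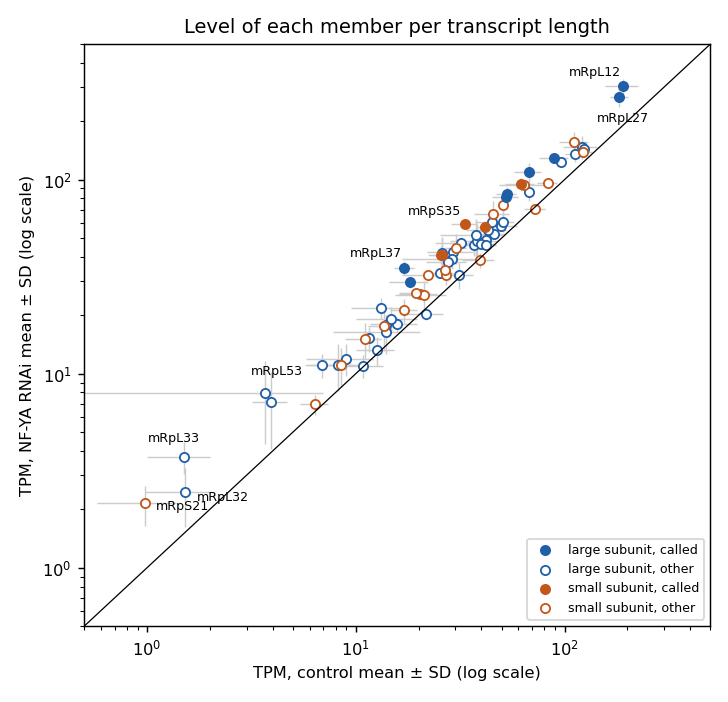
Mean TPM of each member in the NF-YA RNAi group (vertical, log scale) against the control (horizontal, log scale), with grey bars for the SD over 3 libraries, shortened where the SD would reach 0. The line marks equal levels, and filled points are called members. Nearly all points lie on or above the line, from mRpS21 at 0.97 TPM to mRpL12 at 190.5 TPM in the control. TPM carries no TMM scaling. The summed members were 1.34 times the control mean in TPM and 1.24 times in CPM. mRpL9, mRpL23 and mRpL39 lie above the line although their log2 fold changes are negative.

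Transcripts of the mitochondrial ribosomal proteins were in most cases higher after NF-YA RNAi, by a modest amount. Of the 73 members, 12 rose and 0 fell by the edgeR test, and 67 had a positive log2 fold change. Over all genes tested, 6.19% rose, 8.02% fell and 48.3% had a positive log2 fold change. The median change of the members was 0.33, with quartiles of 0.17 and 0.49, against a median of -0.02 over all genes. The members' changes ranged from -0.19 for mRpL18 to 1.19 for mRpL33. At an unadjusted p under 0.05, 31 members were higher and 0 lower, and 13.4% of all genes were higher. The RNAi libraries lay above every control library for 34 members (46.6%) and below for 0, and above for 16.5% of all genes. With DESeq2, 21 members rose and 0 fell, with 8.3% of all genes rising. Among all genes with a mean of at least 2 CPM, 7.99% rose by edgeR. Of the genes at that level, 17.0% were higher at an unadjusted p under 0.05 and 19.9% were higher without overlap.

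**Figure D2:**
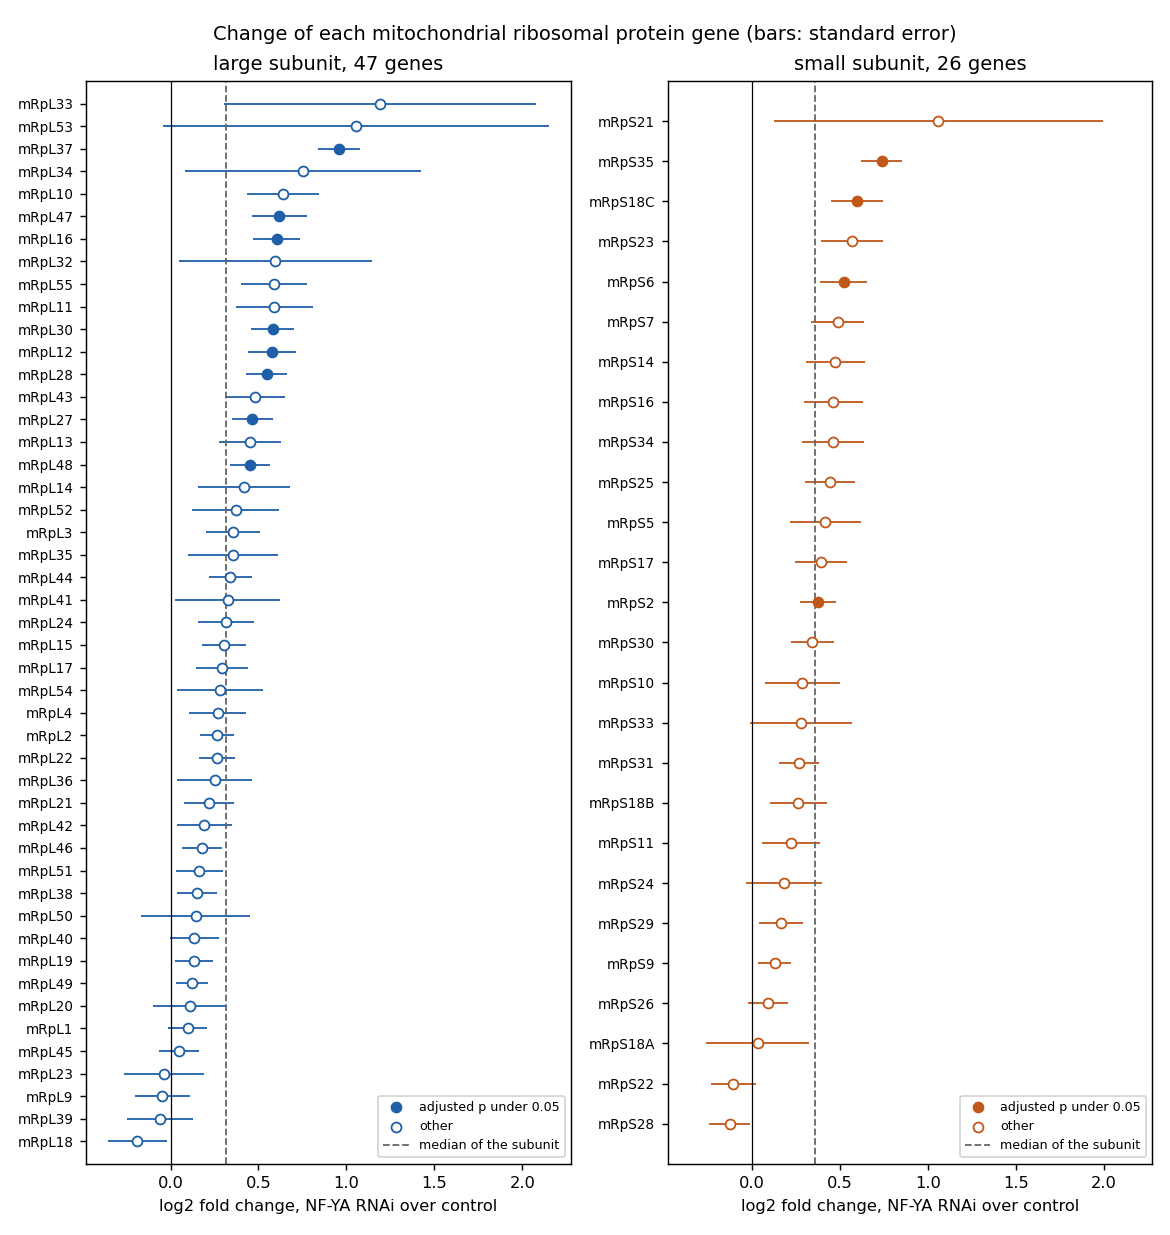
Log2 fold change of every member, large subunit on the left and small subunit on the right, with bars for the SE. Filled points have an adjusted p under 0.05 (edgeR) and the dashed lines mark the subunit medians of 0.31 and 0.36. The wide bars belong to mRpL33, mRpL53, mRpL34, mRpL32 and mRpS21, which are at low levels.

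How many members were called depended on single libraries. Leaving out control library 1 left 2 called members (2.74%) against 2.46% of all genes. The same number was left without control library 2 (2.59% of all genes), without RNAi library 4 (2.05%) and without RNAi library 5 (1.99%). These 2 members were mRpL37 and mRpS35 each time, and they were called in all 6 such fits. Without control library 3 there were 15 called members (20.5%, against 5.2% of all genes), and without RNAi library 2 there were 10 (13.7%, against 5.41%). In those 4 fits with 2 calls the share of called members was thus near that of all genes, whereas the median change of the members stayed between 0.22 and 0.41 over the 6 fits, with between 63 and 68 members higher. In every one of the 6, no member fell.

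**Figure D3:**
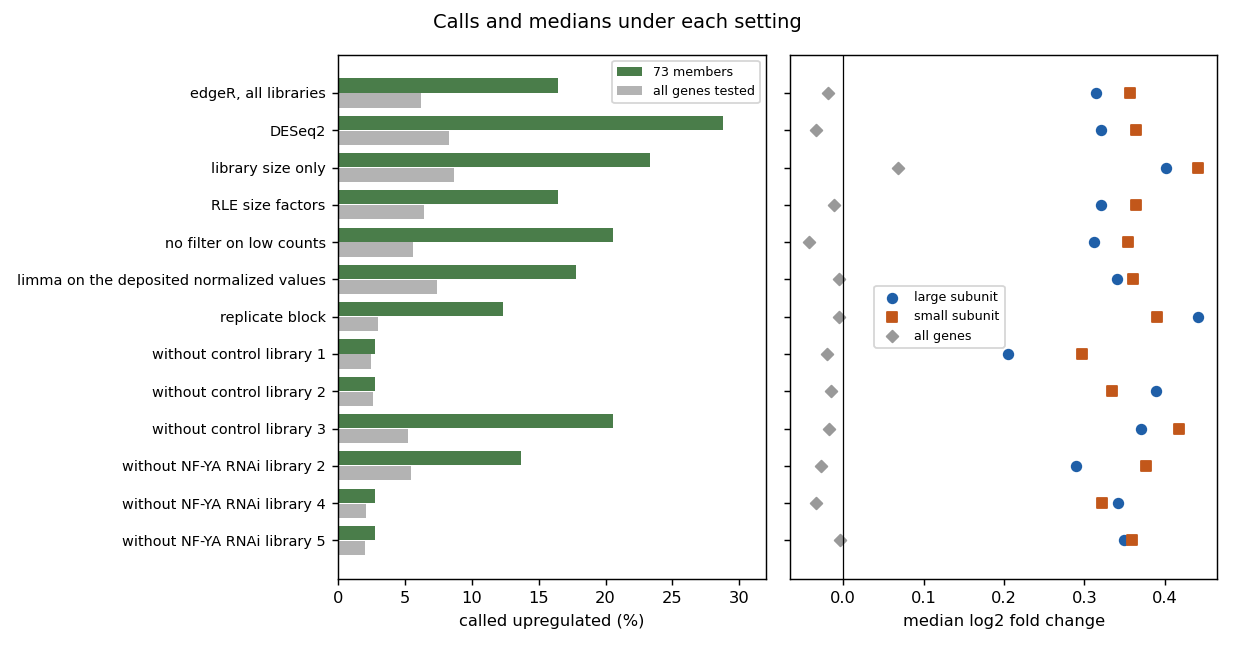
Share of members and of all genes called upregulated (left, percent) and median log2 fold change of each subunit and of all genes (right) for edgeR with all libraries, 6 other settings and the 6 fits that leave out one library. The shares converge near 2.74% in 4 of the leave-one-out fits, while both subunit medians stay above the median of all genes in each fit.

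Library by library, the sum of the members separated the groups. Their summed level was 2002, 2259 and 2450 CPM in control libraries 1, 2 and 3 and 2706, 2829 and 2817 CPM in RNAi libraries 2, 4 and 5. The groups did not overlap, and the RNAi mean was 1.24 times the control mean (2784 ± 67.8 against 2237 ± 225 CPM, SD, n = 3). The median member, relative to its mean over the control libraries, lay at -0.20, 0.02 and 0.13 log2 units in the control libraries and at 0.33, 0.33 and 0.34 in the RNAi libraries. The controls thus differed among themselves by about as much as the median change, and the RNAi libraries hardly differed. Control library 1 was the lowest of the controls for 57 members (78.1%), and 37.7% of all genes had their lowest control value there. It was the lowest of all 6 libraries for 54 members (74.0%), against 24.3% of all genes. This library also had the highest enterocyte, visceral muscle and progenitor marker sums, but not the highest enteroendocrine or hemocyte sum. Without it, the RNAi libraries lay above both remaining controls for 35 members (47.9%), against 19.5% of all genes, and below for 1, mRpL18, which is named after its values were seen.

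**Figure D4:**
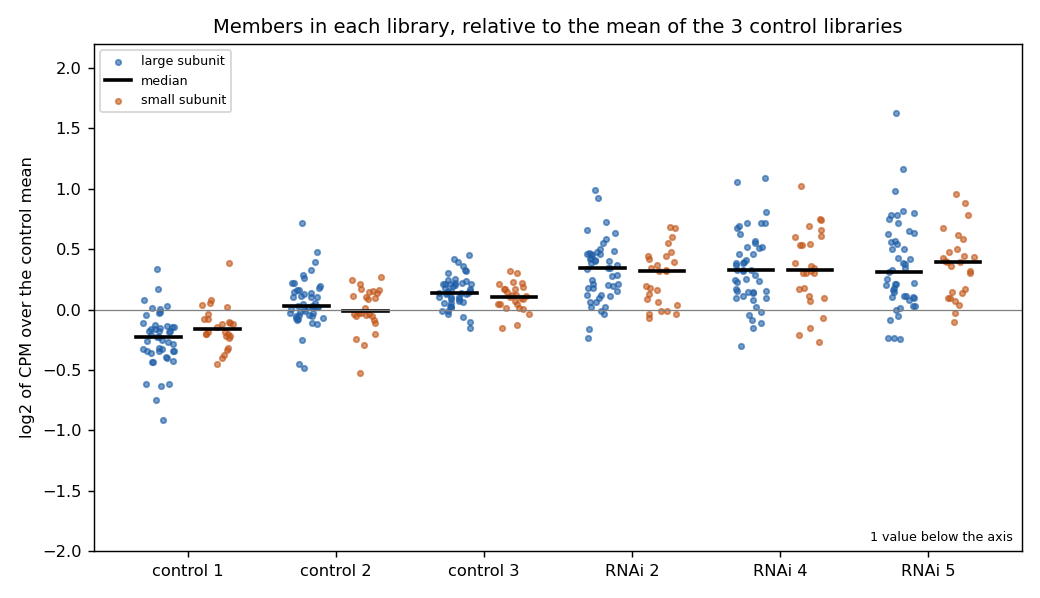
Each point is a member, placed at log2 of its CPM over its mean in the 3 control libraries, by library and subunit; black bars are medians. Medians in control library 1 lie below 0 and those of the RNAi libraries between 0.31 and 0.39. The value outside the axis is mRpL53 in control library 1, where it is listed at 0.

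Both subunits were higher in the RNAi group, with similar medians. Of the 47 large subunit genes 43 were higher, 8 rose and the median change was 0.31, and of the 26 small subunit genes 24 were higher, 4 rose and the median change was 0.36. Those that rose were 17.0% of the large and 15.4% of the small subunit genes, against 6.19% of all genes. The groups did not overlap for 21 large (44.7%) and 13 small (50%) subunit genes, against 16.5% of all genes in the same direction. Summed over the large subunit, the level was 1281, 1482 and 1613 CPM in the control and 1794, 1870 and 1854 CPM in the RNAi libraries. Over the small subunit it was 721, 777 and 837 CPM and 912, 959 and 963 CPM. Neither sum overlapped between the groups. The ratio of the large to the small sum was 1.87 ± 0.08 in the control and 1.95 ± 0.02 in the RNAi group (SD, n = 3), and the groups overlapped, with control library 1 lowest at 1.78. The order of the subunit medians was not stable: the large subunit had the higher median without control library 2 (0.39 against 0.33) and without RNAi library 4 (0.34 against 0.32).

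The prefix is not a sure guide to the subunit, since the human counterparts of mRpS18A and mRpS30 sit in the large subunit. With these moved, the medians were 0.31 over 49 and 0.38 over 24 genes. As before, 8 and 4 were called (16.3% and 16.7%, against 6.19% of all genes). The S18 paralogs, which are variants of a single bacterial protein, had unlike values. mRpS18C, the variant that in human mitoribosomes takes the place of bacterial S18, was at 9.29, 9.46 and 10.7 CPM in the control and at 12.9, 15.9 and 15.7 CPM in the RNAi libraries. The groups did not overlap, and it rose (0.60, SE 0.15, adjusted p = 0.029). mRpS18B was at 10.9, 14.9 and 15.5 CPM and at 15.4, 17.2 and 17.0 CPM, with 1 RNAi library within the control range (0.26, SE 0.16, adjusted p = 0.32). mRpS18A was at 2.80, 3.24 and 2.57 CPM and at 2.99, 2.56 and 3.24 CPM, with groups that overlapped throughout (0.03, SE 0.29, adjusted p = 0.96). No test of the difference between the paralogs was run. For mRpS30 the values were 32.9, 43.5 and 40.2 CPM in the control and 48.5, 48.0 and 51.1 CPM in the RNAi libraries, without overlap (0.34, SE 0.12, adjusted p = 0.096).

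The 12 called members rose between 1.29-fold and 1.95-fold, and in all 12 each RNAi library was above each control library. The largest of these changes was that of mRpL37, a mitochondria-specific protein of the large subunit encoded on chromosome arm 3R (10782563 to 10784092, minus strand, BDGP6.54). It was at 21.6, 24.5 and 25.9 CPM in control libraries 1, 2 and 3 and at 47.7, 50.03 and 42.3 CPM in RNAi libraries 2, 4 and 5. The lowest RNAi library was thus well above the highest control, and the change was 0.96 (SE 0.12, adjusted p = 0.0015). Leaving out each library in turn gave changes between 0.89 and 1.04 and adjusted p between 0.0029 and 0.0092. Next came mRpS35, a mitochondria-specific protein of the small subunit encoded on 3L (2780899 to 2782105, plus strand). It was at 33.3, 38.5 and 43.0 CPM in the control and at 61.1, 64.1 and 66.1 CPM in the RNAi libraries, a change of 0.74 (SE 0.12, adjusted p = 0.0044), with adjusted p between 0.0044 and 0.025 when each library was left out. Neither gene overlaps another annotated gene.

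The L12 stalk recruits the GTPase translation factors, and 3 members form it and its base. mRpL12, at the tip of the stalk, was at 100.4, 125 and 142 CPM in the control and at 169, 202 and 179 CPM in the RNAi libraries. It rose (0.58, SE 0.14, adjusted p = 0.022). mRpL10, which anchors the stalk, was at 8.28, 10.9 and 14.4 CPM and at 15.3, 19.6 and 17.3 CPM (0.64, SE 0.20, adjusted p = 0.068). mRpL11, at the stalk base, was at 3.67, 4.43 and 5.17 CPM and at 5.73, 6.58 and 7.66 CPM (0.59, SE 0.22, adjusted p = 0.11). None of the 3 overlapped between the groups, where 46.6% of all members and 16.5% of all genes were higher without overlap. Of the 3, 1 was called, against 16.4% of all members and 6.19% of all genes called upregulated. This grouping, like the groupings by site and by family in the text that follows, was made after the values were seen.

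Near the peptidyl transferase centre, where peptide bonds form, the 4 members taken to lie there had RNAi libraries above the controls. The shares for this were again 46.6% of all members and 16.5% of all genes. Of the 4, 2 were called, against 16.4% of all members and 6.19% of all genes called upregulated. mRpL16 was at 49.6, 51.3 and 65.1 CPM in the control and at 73.6, 85.7 and 93.1 CPM in the RNAi libraries, and it rose (0.60, SE 0.13, adjusted p = 0.019). mRpL27 was at 61.7, 66.2 and 74.3 CPM and at 85.5, 88.0 and 105.7 CPM, and it rose (0.47, SE 0.12, adjusted p = 0.029). The other members of the region, mRpL2 and mRpL3, core RNA-binding proteins of the large subunit, had changes of 0.27 (adjusted p = 0.098) and 0.36 (adjusted p = 0.15). Around the exit tunnel the values were less uniform, with changes from -0.04 for mRpL23 to 0.62 for mRpL47 over 6 members. mRpL47, the mitochondrial form of bacterial L29, was at 12.1, 17.3 and 17.0 CPM in the control and at 24.4, 24.8 and 22.0 CPM in the RNAi libraries, and it was the 1 member of the tunnel that rose (0.62, SE 0.16, adjusted p = 0.031). mRpL23, its neighbour at the tunnel exit in bacterial ribosomes, was at 7.44, 4.92 and 5.26 CPM and at 6.53, 5.67 and 4.97 CPM. Here the groups overlapped (adjusted p = 0.94).

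The remaining large subunit genes that rose were mRpL30, mRpL28 and mRpL48. mRpL30, of a bacterial family, was at 28.5, 30.7 and 34.9 CPM in the control and at 43.1, 45.9 and 51.8 CPM in the RNAi libraries (0.58, SE 0.12, adjusted p = 0.015). mRpL28, also of a bacterial family, was at 53.2, 57.9 and 69.3 CPM and at 84.0, 86.4 and 93.3 CPM (0.55, SE 0.12, adjusted p = 0.016). mRpL48, found in mitochondria only, was at 45.1, 56.9 and 56.8 CPM and at 73.3, 69.0 and 74.9 CPM (0.45, SE 0.12, adjusted p = 0.031). In mRpL30 and mRpL28 control library 3 was closest to the RNAi group, as it was for most called members.

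In the small subunit, beside mRpS35 and mRpS18C, the bacterial-type proteins mRpS6 and mRpS2 rose. mRpS6, whose bacterial counterpart pairs with S18 on the platform of the subunit, was at 24.2, 27.1 and 32.3 CPM in the control and at 40.8, 42.6 and 36.6 CPM in the RNAi libraries (0.52, SE 0.13, adjusted p = 0.031). mRpS2 was at 34.4, 35.6 and 39.0 CPM and at 45.2, 46.5 and 49.3 CPM (0.37, SE 0.10, adjusted p = 0.041). This was the smallest of the called changes, with the SD of 2.39 and 2.09 CPM in the groups also small.

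**Figure D5:**
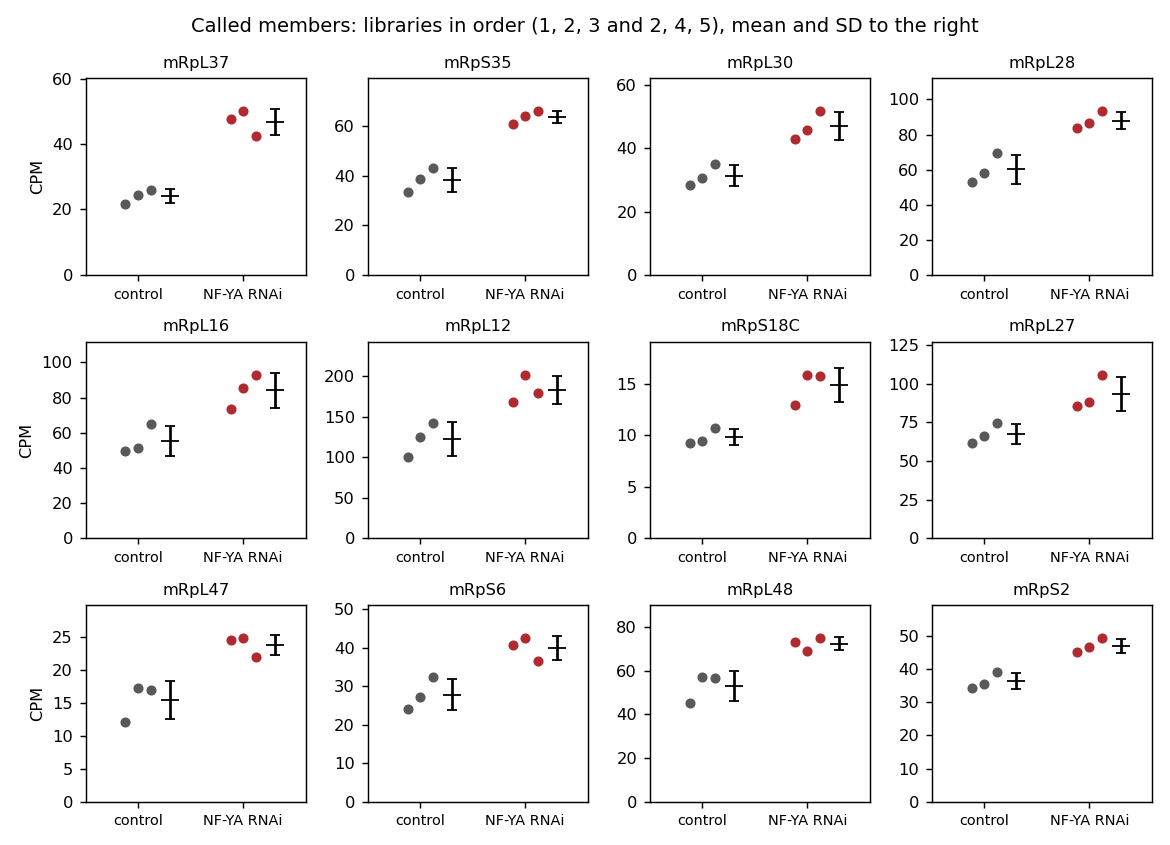
CPM of the 12 called members in each control library (grey) and each NF-YA RNAi library (red), with mean and SD at the right of each group and axes that start at 0. In every panel the lowest RNAi library is above the highest control, and for mRpL37 the highest control is at 25.9 and the lowest RNAi library at 42.3 CPM.

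Split by ancestry, 9 of the 45 members with bacterial counterparts and 3 of the 28 found in mitochondria only rose (20% and 10.7%, against 6.19% of all genes), with median changes of 0.36 and 0.28. Within the large subunit these medians were 0.35 over 29 and 0.24 over 18 genes, and within the small subunit 0.38 over 16 and 0.31 over 10 genes. Both members called in each leave-one-out fit, mRpL37 and mRpS35, are found in mitochondria only. No test of the difference was run.

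Members that depart from the rest were defined as lying more than 3 scaled median absolute deviations (0.24 log2 units each) from the median member. These were mRpL33, mRpL53 and mRpS21, all on the upper side and none called. mRpL33, a small protein of a bacterial family, had only 31, 15 and 37 estimated counts in the control and 67, 59 and 55 in the RNAi libraries. The groups did not overlap in CPM, with a change of 1.19 and an SE of 0.89 (adjusted p = 0.43). mRpS21, also of a bacterial family, had 37, 14 and 30 estimated counts and 44, 75 and 46, again without overlap in CPM (1.06, SE 0.93, adjusted p = 0.51). The 4 members under a mean of 2 CPM (these 2 with mRpL32 and mRpL34) had changes from 0.60 to 1.19 with SEs of 0.55 to 0.93. Among the 69 others the median was 0.31 with 12 called (17.4%, against 7.99% of all genes of at least 2 CPM). The departure of mRpL33 and mRpS21 thus stood within about 1 SE of the median member.

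mRpL53, of the large subunit and found in mitochondria only, departed in another way. It had 0, 446 and 432 estimated counts in control libraries 1, 2 and 3 and 447, 556 and 686 in RNAi libraries 2, 4 and 5, with a change of 1.06 and an SE of 1.1 (adjusted p = 0.58). Its departure depended on single libraries. Without control library 1 the change was 0.47 (SE 0.37, adjusted p = 0.52), near the other members. Without RNAi library 5 the change was 0.63 (SE 1.27, adjusted p = 0.83). With limma on the deposited normalized values it was 3.32 (adjusted p = 0.25). Its annotated span of 1470 bases on 2R coincides with that of CG33155 on the same strand, so strand cannot tell reads shared by these genes apart. The span also lies within AGO1 on the other strand, and the strand setting of the counting is not given in the sources used here. The estimates of mRpL53, CG33155 and AGO1 are thus uncertain. CG33155 had 1096, 1189 and 1454 estimated counts in the control and 1533, 1326 and 685 in the RNAi libraries. The sum of mRpL53 and CG33155 was 10.6, 16.7 and 15.8 CPM in the control and 16.9, 15.4 and 17.3 CPM in the RNAi libraries, with groups that overlapped. Of the other members, mRpL13 lies wholly within CG10602 on the same strand (0.45, SE 0.18, adjusted p = 0.12). In all, 43 members overlap another gene, 34 of them by at most 100 bases.

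The 6 members with a negative log2 fold change, named after their values were seen, were mRpL18 (-0.19), mRpS28 (-0.13), mRpS22 (-0.11), mRpL39 (-0.06), mRpL9 (-0.05) and mRpL23 (-0.04), none with an unadjusted p under 0.05. mRpL18, of the family that binds 5S rRNA in bacteria, was at 11.2, 14.6 and 16.3 CPM in the control and at 11.9, 13.2 and 11.8 CPM in the RNAi libraries (SE 0.17, adjusted p = 0.51). The groups overlapped through control library 1. mRpS28 was at 39.0, 40.0 and 48.3 CPM and at 40.4, 36.5 and 39.6 CPM (SE 0.12, adjusted p = 0.53). Here control library 3 alone was above the RNAi group. mRpL49, among the abundant members, did not pass either, at 74.2, 68.2 and 68.5 CPM and at 79.7, 74.1 and 75.7 CPM (0.12, SE 0.09, adjusted p = 0.43).

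A pair of genes outside the name rule also encode mitoribosomal proteins. For tko, the S12 protein of the decoding site, the level was 27.8, 39.4 and 38.9 CPM in the control and 46.5, 45.2 and 40.4 CPM in the RNAi libraries (0.32, SE 0.15, adjusted p = 0.19). For bonsai, the S15 protein, it was 7.20, 10.2 and 11.2 CPM and 11.2, 15.3 and 16.8 CPM (0.60, SE 0.21, adjusted p = 0.090). In both, every RNAi library was above every control, as for 16.5% of all genes tested, and neither was called by edgeR. For bonsai the gap was small, from 11.19 CPM in control library 3 to 11.21 CPM in RNAi library 2.

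Other parts of mitochondrial gene expression were read from lists of symbols, whose calls stand against the 6.19% of all genes that rose and the 8.02% that fell. The 15 mitochondrially encoded rRNAs and mRNAs tested were all higher, by a median of 0.23, but 0 were called by edgeR, 1 with DESeq2 and 1 at an unadjusted p under 0.05. In none of the 15 did the groups separate. The highest of their changes was 0.74 for mt:ND2 (SE 0.38, adjusted p = 0.23). The libraries were made for coding transcripts, so levels of these rRNAs are not those of total RNA. Of 9 mitochondrial translation factors tested, 8 were higher and 2 rose, with a median of 0.34. These 2 were mEFTs, the exchange factor of mitochondrial EF-Tu (86.8 to 122 CPM, 0.49, SE 0.10, adjusted p = 0.012), and CG6094 (13.4 to 20.2 CPM, 0.59, SE 0.16, adjusted p = 0.036). mIF2, the initiation factor that brings in the first tRNA, had a change of -0.14 (SE 0.26). Of 12 genes of mitochondrial transcription and RNA handling tested, 10 were higher and 2 rose, with a median of 0.20. These were PNPase (0.55, SE 0.12, adjusted p = 0.016) and Suv3 (0.67, SE 0.17, adjusted p = 0.034), the exonuclease and the helicase that degrade mitochondrial RNA. PolrMT, the mitochondrial RNA polymerase, had a change of 0.05 (SE 0.12).

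For scale, 87 tested genes named for the cytoplasmic ribosome (prefix RpL or RpS, or sta) had a median change of -0.16. The list was taken by name only. Of these 87, 17 fell (19.5%, against 8.02% of all genes) while 0 rose. Of 34 tested genes of respiratory complex I (prefix ND-), which holds mitochondrially made subunits, 4 rose and 0 fell, with a median of 0.21. Those that rose were 11.8%, against 6.19% of all genes. Against these, 12 of 73 mitochondrial ribosomal protein genes (16.4%) rose with a median of 0.33.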

How the data were processed

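Members and lists were chosen with earlier results of these data known. According to the methods, the authors ran nf-core/rnaseq 3.18.0, in which Trim Galore 0.6.10 trims, STAR 2.7.11b aligns (here to FlyBase r6.62) and Salmon 1.10.3 estimates counts. The labels name other tools (Trimmomatic, TopHat2, HTSeq), which the files do not reflect. The authors deposited estimated counts and TPM per transcript, with other columns for transcript length. They also deposited a gene table with signal values (normalized counts, used for the members and for limma), log2 fold changes and p-values of their own comparison, which were not used.

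Here estimated counts were summed to genes of BDGP6.54 (Ensembl release 115) and rounded. In each library, 44 transcripts matched no gene (0.209% to 0.345% of counts). Genes were tested with edgeR 4.0.16 (R 4.3.3, filterByExpr, TMM, prior count 0.125, quasi-likelihood, Benjamini-Hochberg), all 6 libraries and no covariates. The fit was also run on simulated counts with the dispersions of these data and no shift of single libraries. That run cannot show how calls depend on single libraries. Alternatives used DESeq2 1.42.0, limma 3.58.1 (pseudocount 1), other scalings, no filter, a block and each library left out. The counts without control library 1 of groups that do not overlap, and those of members and of all genes over 2 CPM, were added after seeing the data. Relative levels used a pseudocount of 0.1 CPM. Members named are those called, those over 3 scaled MADs from the median, the 3 highest and lowest by TPM, the S18 paralogs with mRpS30, tko and bonsai, and others where the text says so. Promoters and sequences were not analysed here. Counts measure fragments without molecular identifiers, so depth covers counting error only.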

Additional observations from a re-analysis of the deposited data

How the results depend on the processing

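The number of members called upregulated was 12 by edgeR, 21 with DESeq2 and between 2 and 15 when each library was left out. It was 17 with library size only (8.63% of all genes), 12 with RLE size factors (6.43%), 15 without a filter on low counts (5.57%) and 13 with limma on the deposited normalized values (7.41%), and all 12 were among the calls of each of these and of DESeq2. The scaling by library size only moved the median of all genes to 0.07 and the share of higher calls among all calls from 43.6% to 59.2%. With the title numbers as a replicate block, 9 members were called (2.98% of all genes), 7 of them among the 12, and the median change was 0.44 (0.44 for the large and 0.39 for the small subunit). Control library 3 and RNAi library 5 share their title number with no other library. The group effect of this fit thus rests on control libraries 1 and 2 and RNAi libraries 2 and 4. The numbers were not used to pair libraries, because the same-numbered libraries deviated together only weakly (r of 0.05 and -0.02). No member was called downregulated in any of these fits, and the median change of the members stayed between 0.22 and 0.44. With a library left out, 11 members changed sign in at least 1 fit, 5 of which have their change given in the report. Of these mRpL23 was at 0.058 with library size only and 0.0082 in the block, and at -0.15 to 0.17 with each library left out. mRpL39 was at 0.020 with library size only and at -0.21 to 0.092, mRpL9 at 0.038 with library size only, at 0.16 in the block and at -0.17 to 0.072, mRpS18A at -0.12 in the block and at -0.044 to 0.13, and mRpS22 at -0.17 to 0.011. The cause was not tested. bonsai passed with DESeq2 (adjusted p = 0.049) and without RNAi library 2 (edgeR adjusted p = 0.048). mRpL53 was at 2.86 in the block (adjusted p = 0.16). Counts under 100 per library limit mRpL33 and mRpS21.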

Other observations

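For mRpL14, a large subunit protein of a bacterial family, the Salmon estimates of its transcripts shifted. FBtr0333730 made up 61.8%, 46.7% and 40.4% of the gene's TPM in control libraries 1, 2 and 3 and 10.7%, 15.4% and 6.24% in RNAi libraries 2, 4 and 5. FBtr0070405 made up the rest, at 6.44, 22.1 and 17.0 TPM in the control and at 35.1, 29.1 and 40.3 TPM in the RNAi libraries. The shares did not overlap between the groups, whereas the gene as a whole had a change of 0.42 (SE 0.26, edgeR adjusted p = 0.34). For mRpL21 and mRpS6, whose transcripts were also read, the shares overlapped, and no share over other genes is given here. The transcripts were noticed after the values were seen, no test was run, and Salmon's division of reads between transcripts of a gene carries an error that the files used here do not give. Of the members, 55 have a single annotated transcript.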
